A study of Mus musculus with 5 samples.

Results

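The genes described here are 38 leukocyte and macrophage genes, named by symbol as markers of the main classes of blood cells, out of 23478 genes in the deposited count table. All 38 were in the table and all 38 had enough counts to be tested, together with 15298 genes in all. They were split by role into 11 pan-leukocyte genes, 12 macrophage and monocyte genes, 3 Fc receptor and ITAM adaptor genes, 2 phagocyte oxidase genes, 4 MHC class II genes, 2 neutrophil genes and 4 lymphocyte genes. The question they address is which blood cell classes carried the lower leukocyte signal of the Igf1r-deleted libraries.

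RNA-Seq was performed on cells sorted for GFP from lungs of mouse pups at P6. The 2 control libraries carried 1 floxed and 1 wild-type Igf1r allele and the 3 Igf1r-deleted libraries carried 2 floxed alleles, and every library also carried Gli1creER and the Rosa-EGFP reporter and came from pups given 100 ug of tamoxifen at P0 and again at P1. Gli1creER recombines in Gli1-expressing mesenchymal cells, and the labels name the sorted cells as fibroblasts. By co-staining of reporter lungs, the study found recombination mainly in fibroblasts and detected none in hematopoietic, epithelial or endothelial cells. The study used mice of both sexes on a mixed background. Whether CD45+ cells were gated out of this sort is not given in the sources used here. The number of pups per library and the sex per library are not given either. Igf1r, the deleted gene, was at 324 and 324 CPM (read counts scaled to library size) in control replicates 1 and 2, but 140, 177 and 194 CPM in the 3 Igf1r-deleted replicates in order of number, so the levels followed the labels.

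Leukocytes arise from hematopoietic precursors, whereas lung fibroblasts arise from mesenchyme. In the newborn lung, monocyte-derived and resident macrophages, neutrophils, dendritic cells and lymphocytes populate the airspaces, the interstitium and the vessels while alveoli form, and fibroblasts supply growth factors such as CSF1 that macrophages need. PU.1, the ETS-family factor encoded by Spi1, activates many myeloid and B cell genes through purine-rich sites close to their starts, and MHC class II promoters carry a conserved inverted CCAAT element called the Y box.

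Because many of these genes share such elements, promoter sequences were read for the most abundant gene of each class that had an entry, and for Lyz1 and H2-Eb1, whose levels departed from those of their closest partners. RefSeq sequences on GRCm38.p6 (mm10) had an entry for 28 of the 38 genes. Each line gives the 150 bases that end just before the RefSeq start of the gene. GAGGAA, a sequence of PU.1 sites, and the box CCAAT are in capitals on either strand (TTCCTC and ATTGG on the other strand). Laptm5 lies at chr4:130913166-130913315 (+), Lyz2 at chr10:117282273-117282422 (-), Lyz1 at chr10:117292869-117293018 (-), Fcgr3 at chr1:171059404-171059553 (-), Cybb at chrX:9469325-9469474 (-), H2-Aa at chr17:34287824-34287973 (-), H2-Eb1 at chr17:34305717-34305866 (+), S100a9 at chr3:90695722-90695871 (-) and Cd79a at chr7:24897347-24897496 (+).
Laptm5: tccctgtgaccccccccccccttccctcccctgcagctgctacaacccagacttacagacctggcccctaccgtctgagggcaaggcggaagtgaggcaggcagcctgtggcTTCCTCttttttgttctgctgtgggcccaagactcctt
Lyz2: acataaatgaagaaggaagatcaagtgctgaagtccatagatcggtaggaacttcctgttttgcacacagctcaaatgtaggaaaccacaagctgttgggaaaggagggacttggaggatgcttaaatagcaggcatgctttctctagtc
Lyz1: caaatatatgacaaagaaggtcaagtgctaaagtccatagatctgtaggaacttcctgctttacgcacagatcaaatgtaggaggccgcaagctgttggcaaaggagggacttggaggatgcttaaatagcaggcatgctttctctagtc
Fcgr3: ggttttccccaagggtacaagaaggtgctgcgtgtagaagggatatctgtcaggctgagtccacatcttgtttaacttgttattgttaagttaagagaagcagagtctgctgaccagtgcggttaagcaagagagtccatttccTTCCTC
Cybb: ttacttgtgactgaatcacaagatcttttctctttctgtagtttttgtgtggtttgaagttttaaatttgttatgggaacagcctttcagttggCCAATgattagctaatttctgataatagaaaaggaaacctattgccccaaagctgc
H2-Aa: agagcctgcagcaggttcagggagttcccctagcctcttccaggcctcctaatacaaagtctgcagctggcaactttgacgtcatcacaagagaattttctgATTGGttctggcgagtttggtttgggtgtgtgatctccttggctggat
H2-Eb1: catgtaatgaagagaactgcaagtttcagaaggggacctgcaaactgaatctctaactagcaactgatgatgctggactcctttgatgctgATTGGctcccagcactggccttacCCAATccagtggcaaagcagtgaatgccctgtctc
S100a9: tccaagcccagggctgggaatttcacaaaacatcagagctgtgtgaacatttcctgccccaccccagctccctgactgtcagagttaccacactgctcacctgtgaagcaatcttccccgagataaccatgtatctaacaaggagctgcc
Cd79a: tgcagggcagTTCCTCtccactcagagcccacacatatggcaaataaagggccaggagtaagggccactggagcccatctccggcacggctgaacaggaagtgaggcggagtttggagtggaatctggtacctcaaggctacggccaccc

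GAGGAA or TTCCTC was present in the 300-base promoter windows (250 bases before to 50 after the start) of 18 of the 28 genes, or 64.3%, against 31.3% of 27025 mouse genes with an entry. The 18 included pan-leukocyte, myeloid and lymphocyte genes, among them Ptprc, Laptm5, Vav1, Itgam, C1qb, S100a8, Cd79a and Cd3e. CCAAT or ATTGG was present in 9 of the 28, or 32.1%, against 41.1% of all genes. H2-Eb1 carried 1 match on each strand in the printed bases and H2-Aa carried 1. The printed bases of Lyz1 and Lyz2 were identical at 134 of 150 positions, with 88.7% identity over the alignment, and held neither motif. For C1qb, Cd68, Plek and Arhgdib, the bases after the start in the matching window were not found in GENCODE M21 transcripts of the gene. Other forms of PU.1 sites were not searched. These counts describe letters in these windows and not bound sites.

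The fitted level was lower in the Igf1r-deleted libraries for 37 of 38 genes and higher for 1, Lyz1, whereas it was lower for 7301 of all 15298 genes tested. Without control replicate 1, 33 of 38 were lower. The median log2 fold change was -0.72 over the 38 genes and 0.01 over all genes tested. Leaving out 1 library moved the median of the 38 between -1.22 (Igf1r-deleted replicate 1) and -0.48 (control replicate 1). At an unadjusted p under 0.05, 10 of the 38 genes (26.3%) were lower, against 6.75% of all genes tested, and none was higher. For 13 of the 38 (34.2%), all 3 Igf1r-deleted libraries lay below both controls, against 14.9% of all genes. No gene reached an adjusted p of 0.05 in edgeR's quasi-likelihood F test after Benjamini-Hochberg adjustment, neither among the 38 nor among all 15298 genes tested (0.0% called), and the smallest adjusted p among the 38 was 0.354. DESeq2 placed 12 of the 38 lower at an unadjusted p under 0.05, against 7.6% of all genes. It called 1 of them, Cd79a, at an adjusted p of 0.0269, against 0.941% of all genes called lower, and gave no adjusted p for 4 of the 38 (Vav1, Marco, Cd3e and Nkg7). In bulk RNA, fewer cells of a type and less RNA per cell cannot be told apart.

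The summed level of the 38 genes was 1400 and 1015 CPM in control replicates 1 and 2, and 1058, 795 and 489 CPM in the deleted group, that is the 3 Igf1r-deleted libraries, values being given throughout in the order of the replicate numbers. The 38 genes took 0.135% and 0.0994% of all counts in the control libraries and 0.104%, 0.0841% and 0.0501% in the Igf1r-deleted libraries. Igf1r-deleted replicate 1 therefore lay between the controls, and the lower means came from Igf1r-deleted replicates 2 and 3. By gene, Igf1r-deleted replicate 1 was below both controls for 18 of 38 genes (47.4%, against 34.8% of all genes tested), Igf1r-deleted replicate 2 for 30 of 38 (78.9%, against 37.4%) and Igf1r-deleted replicate 3 for 38 of 38 (against 37.3%). Igf1r-deleted replicate 3 was the lowest library for 30 genes, Igf1r-deleted replicate 2 for 6 and Igf1r-deleted replicate 1 for 2. Of all 15298 genes tested, 3118, 3132 and 2818 were lowest in these libraries. The controls also differed from each other, with control replicate 1 above control replicate 2 for 30 of 38 genes, against 7697 of all 15298.

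These counts depended on single libraries. Without Igf1r-deleted replicate 1, 29 of the 38 genes were lower at an unadjusted p under 0.05, against 11.6% of all genes, and 1, Coro1a, had an adjusted p under 0.05 in edgeR's quasi-likelihood test (adjusted p = 0.0427), against 0.033% of all genes called lower. Without control replicate 1, 4 of the 38 were lower at an unadjusted p under 0.05, against 1.61% of all genes. The genes without overlap numbered 30 of 38 without Igf1r-deleted replicate 1, against 27.0% of all genes, and 31 of 38 without control replicate 2, against 31.3% of all genes. With fewer libraries, genes without overlap are more frequent by construction.

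**Figure D1:**
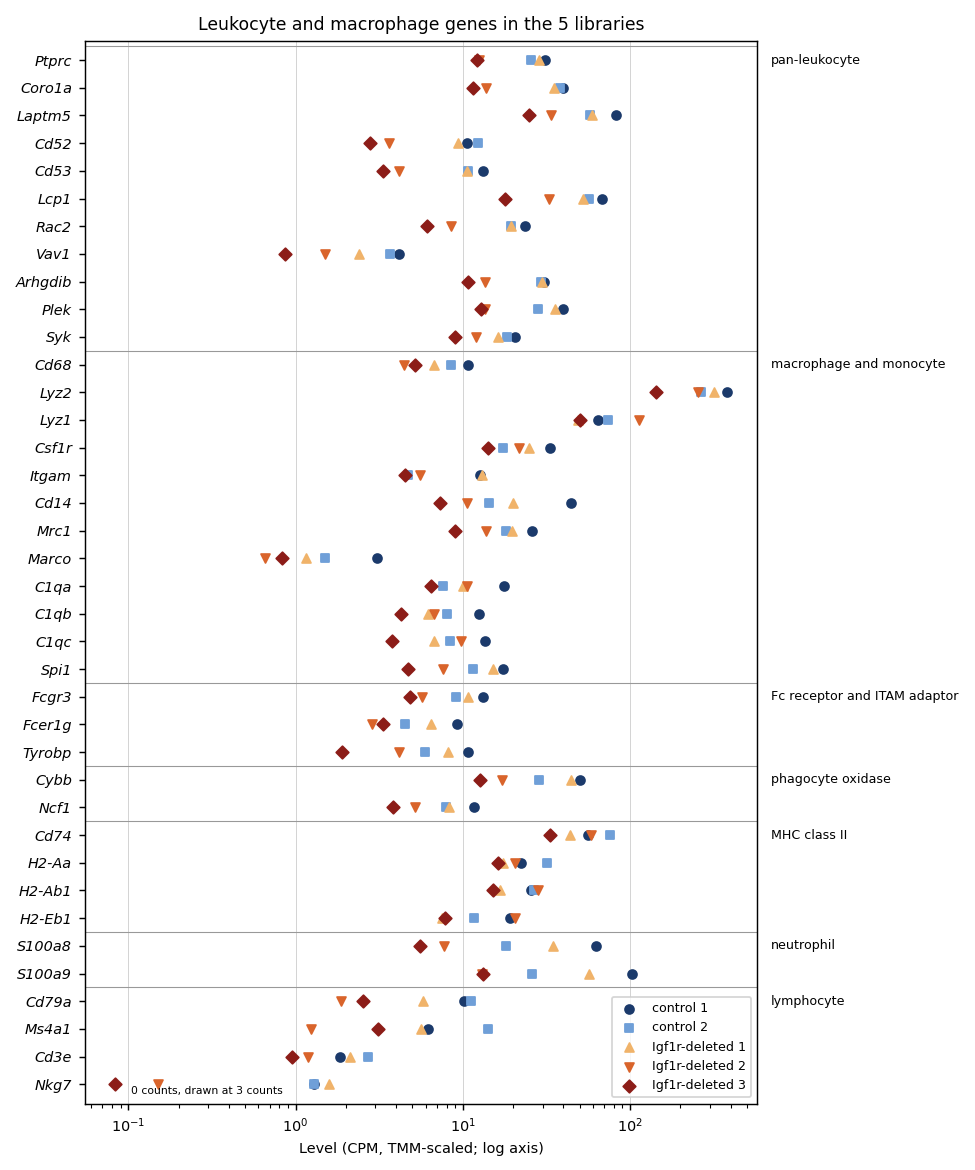
Level of each of the 38 genes in the 5 libraries, in TMM-scaled CPM on a log axis, grouped by class. Igf1r-deleted replicates 2 and 3 lie to the left of both controls for 30 and 38 genes, while Igf1r-deleted replicate 1 often lies among the controls, and Nkg7 in Igf1r-deleted replicate 3, at 0 counts, is drawn at the level of 3 counts.

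The 11 pan-leukocyte genes, which are shared by many leukocyte classes, were ordered much alike across the libraries. Their summed level was 363 and 300 CPM in the controls, against 299, 149 and 112 CPM in the deleted group, which is 90.2%, 45.0% and 33.9% of the control mean. All 11 were lower by their fitted fold change, with a class median of -0.86 that was -1.37 without Igf1r-deleted replicate 1, and all 11 were lowest in Igf1r-deleted replicate 3. At an unadjusted p under 0.05, 4 of 11 were lower, against 6.75% of all genes tested. Of the 11, 7 had no overlap between the genotypes, against 14.9% of all genes lower without overlap.

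Ptprc, which encodes CD45, the surface phosphatase that defines leukocytes in cell sorting, was at 31.1 and 25.5 CPM in the controls, against 28.7, 12.5 and 12.2 CPM in the deleted group. Its level in Igf1r-deleted replicate 1 thus lay between the controls. Laptm5, a lysosomal membrane protein of hematopoietic cells, was at 82.8 and 57.7 CPM against 59.5, 33.7 and 24.8 CPM, with a log2 fold change of -0.84 (SE 0.34, unadjusted p = 0.0422). Lcp1, the leukocyte actin-bundling protein L-plastin, was at 67.8 and 57.0 CPM against 52.6, 32.6 and 18 CPM, with a log2 fold change of -0.86 (SE 0.37, unadjusted p = 0.0529). For Lcp1 every Igf1r-deleted library was below both controls, and for Laptm5 Igf1r-deleted replicate 1 was slightly above control replicate 2. For Lcp1, 8.82% of the 31-base words of its exons also occurred in other loci.

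Coro1a, an actin-binding coronin of leukocytes, was at 39.5 and 38 CPM in the controls, against 34.9, 13.7 and 11.5 CPM in the deleted group. Its controls were close together and Igf1r-deleted replicate 1 was just below them. Rac2, the hematopoietic Rac GTPase, was at 23.6 and 19.3 CPM against 19.3, 8.5 and 6.12 CPM. Arhgdib was at 30.4 and 29.2 CPM against 29.9, 13.6 and 10.8 CPM. Plek, the protein kinase C substrate pleckstrin, was at 39.5 and 28.3 CPM against 35.6, 13.5 and 12.8 CPM. For Arhgdib and Plek, Igf1r-deleted replicate 1 lay between the controls, whereas for Rac2 it lay just below both.

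Vav1, the hematopoietic exchange factor for Rac GTPases, was at 4.18 and 3.66 CPM in the controls, against 2.41, 1.51 and 0.863 CPM in the deleted group, and was fitted lower at -1.30 (SE 0.41, unadjusted p = 0.0159). Syk, the tyrosine kinase downstream of antigen and Fc receptors, was at 20.6 and 18.3 CPM against 16.3, 11.9 and 9.02 CPM, at -0.65 (SE 0.23, unadjusted p = 0.0272). Neither gene had overlap between the genotypes, and both were ordered in the same way across the Igf1r-deleted libraries. Cd52, a small anchored glycoprotein of lymphocytes and monocytes, was at 10.5 and 12.3 CPM against 9.35, 3.62 and 2.78 CPM, at -1.12 (SE 0.47, unadjusted p = 0.0457). Cd53, a leukocyte tetraspanin, was at 13.1 and 10.8 CPM against 10.6, 4.17 and 3.34 CPM. Both surface proteins were without overlap, and 14.5% of the exon bases of Cd52 overlapped Crybg2 on the opposite strand.

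**Figure D2:**
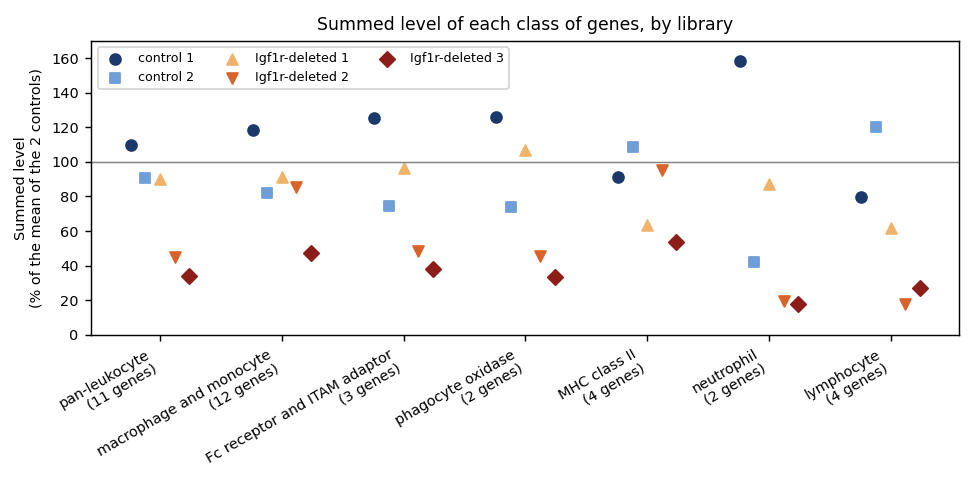
Summed level of the genes of each class in each library, as a percentage of the mean of the 2 controls (grey line at 100%). The pan-leukocyte and lymphocyte sums of Igf1r-deleted replicates 2 and 3 lie between 18.1% and 45.0%, the MHC class II sum of Igf1r-deleted replicate 2 lies at 95%, and the neutrophil sums of the 2 controls lie at 158% and 42.0%.

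The 12 macrophage and monocyte genes were less uniform. Their summed level was 634 and 440 CPM in the controls, against 489, 458 and 253 CPM in the deleted group, or 91.1%, 85.3% and 47.1% of the control mean. Much of this sum was Lyz2, with a control mean of 323 CPM beside 537 CPM for the class. Taken gene by gene, the median level was 75.0%, 64.5% and 42.9% of the control mean in the deleted group. Of the 12, 11 had a lower fitted level, with a class median of -0.65. Of these, 3 (Cd68, Marco and C1qb) were lower at an unadjusted p under 0.05 and had no overlap. The shares of all genes tested were 6.75% and 14.9%. Leaving out control replicate 1 gave a class median of -0.25, leaving out control replicate 2 gave -0.96, and leaving out Igf1r-deleted replicate 3 gave -0.37.

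Lyz2, the lysozyme of macrophages and neutrophils, had the highest level per kilobase of exon of the 38 genes in the controls, 245 CPM per kb. On mm10 (GENCODE M21) Lyz2 spans chr10:117277331-117282321 and Lyz1 spans chr10:117287797-117292868, both on the minus strand. Lyz2 was at 379 and 266 CPM in the controls, against 317, 254 and 142 CPM in the deleted group, with a log2 fold change of -0.44 (SE 0.31, unadjusted p = 0.198). Lyz1, the neighboring paralog known from intestinal Paneth cells, was at 64.2 and 73.6 CPM against 48.9, 113 and 50.3 CPM, with a log2 fold change of 0.04 (SE 0.35, unadjusted p = 0.918). Lyz1 thus had its highest level in Igf1r-deleted replicate 2 and its lowest in Igf1r-deleted replicate 1, and its fitted log2 fold change was -0.48 without Igf1r-deleted replicate 2. Among the Igf1r-deleted libraries the sum of 12 epithelial genes was also highest in replicate 2, at 69.7%, 104% and 47.0% of its control mean, but lowest in replicate 3. Whether non-leukocyte cells contributed to the Lyz1 levels was not tested. The ratio of Lyz1 to Lyz2 counts was 0.169 and 0.276 in the controls and 0.154, 0.445 and 0.353 in the Igf1r-deleted libraries. The genes shared 34.2% of the 31-base words of the Lyz1 exons and 32.8% of those of the Lyz2 exons, so the division of reads between them is uncertain.

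Cd68, the lysosomal macrophage marker macrosialin, was at 10.8 and 8.49 CPM in the controls, against 6.72, 4.45 and 5.18 CPM in the deleted group, with a log2 fold change of -0.82 (SE 0.23, unadjusted p = 0.00801). Marco, a scavenger receptor of alveolar macrophages, was at 3.08 and 1.5 CPM against 1.16, 0.654 and 0.835 CPM, at -1.37 (SE 0.44, unadjusted p = 0.0161). Marco rested on 26 to 41 counts in each Igf1r-deleted library. Mrc1, the mannose receptor CD206, was at 26 and 18 CPM against 19.8, 13.8 and 9.02 CPM. Both endocytic receptors were thus lowest in Igf1r-deleted replicates 2 and 3, but only Marco was without overlap.

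C1qa, C1qb and C1qc encode the 3 chains of complement C1q, which macrophages secrete, and lie side by side at chr4:136895917-136898803, chr4:136880129-136886187 and chr4:136889804-136893065. C1qb was at 12.5 and 8.05 CPM in the controls, against 6.23, 6.69 and 4.29 CPM in the deleted group, with a log2 fold change of -0.84 (SE 0.27, unadjusted p = 0.0155). C1qa was at 17.7 and 7.61 CPM against 9.97, 10.6 and 6.48 CPM, and C1qc was at 13.6 and 8.40 CPM against 6.72, 9.78 and 3.78 CPM. For C1qa and C1qc, control replicate 1 stood apart from control replicate 2, which overlapped with the Igf1r-deleted libraries. Unlike the pan-leukocyte genes, the C1q genes were not lower in Igf1r-deleted replicate 2 than in Igf1r-deleted replicate 1.

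Csf1r, the receptor for CSF1 and IL-34, was at 33.1 and 17.4 CPM in the controls, against 25, 21.8 and 14.2 CPM in the deleted group. Itgam, the CD11b integrin chain, was at 12.6 and 4.72 CPM against 13, 5.53 and 4.54 CPM, and 68.7% of its exon bases overlapped the model Gm49368 on the same strand. Cd14, the lipopolysaccharide co-receptor, was at 44.2 and 14.4 CPM against 20.03, 10.6 and 7.35 CPM. For each of these surface receptors control replicate 2 lay within the range of the Igf1r-deleted libraries, and leaving out control replicate 1 gave fitted log2 fold changes of 0.22, 0.70 and -0.19. Spi1, which encodes PU.1, was at 17.5 and 11.5 CPM against 15.1, 7.62 and 4.73 CPM. Its order of libraries was that of Ptprc.

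The 3 Fc receptor and ITAM adaptor genes and the 2 phagocyte oxidase genes had no gene below an unadjusted p of 0.05 and none without overlap. Of all genes tested, 6.75% were lower at that threshold and 14.9% were lower without overlap. Fcgr3, the low-affinity receptor for IgG, was at 13.1 and 9.17 CPM in the controls, against 10.8, 5.73 and 4.84 CPM in the deleted group, with a log2 fold change of -0.65 (SE 0.35, unadjusted p = 0.104), and 13.4% of its 31-base words also occurred in Fcgr2b. Fcer1g, the shared signaling chain of Fc receptors, was at 9.24 and 4.53 CPM against 6.49, 2.87 and 3.34 CPM. Tyrobp, the adaptor DAP12, was at 10.7 and 5.92 CPM against 8.19, 4.17 and 1.89 CPM, at -0.81 (SE 0.54, unadjusted p = 0.179). In each of the 3, Igf1r-deleted replicate 1 lay between the controls and Igf1r-deleted replicates 2 and 3 lay below them.

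Cybb, the catalytic gp91phox subunit of the phagocyte NADPH oxidase, was at 50.3 and 28.5 CPM in the controls, against 44.3, 17.2 and 12.7 CPM in the deleted group, with a log2 fold change of -0.67 (SE 0.50, unadjusted p = 0.220). Ncf1, its cytosolic organizer p47phox, was at 11.6 and 7.89 CPM against 8.27, 5.16 and 3.81 CPM, at -0.76 (SE 0.33, unadjusted p = 0.0557). Both oxidase genes ranked the 5 libraries in the same order, control replicate 1, Igf1r-deleted replicate 1, control replicate 2, Igf1r-deleted replicate 2 and Igf1r-deleted replicate 3.

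The 4 MHC class II genes, whose products present peptides to CD4+ T cells from B cells, dendritic cells and activated macrophages, followed another order. H2-Ab1 (chr17:34257689-34269419), H2-Aa (chr17:34282744-34287823) and H2-Eb1 (chr17:34305867-34316674) are neighbors in the MHC locus, and Cd74 lies elsewhere. The summed level of the 4 was 123 and 146 CPM in the controls, against 85.0, 128 and 72.3 CPM in the deleted group, or 63.3%, 95% and 53.8% of the control mean. The sum of 12 epithelial genes ranked the Igf1r-deleted libraries alike, at 69.7%, 104% and 47.0% of its control mean. Its controls ranked the other way, at 104% and 96.4%. Whether non-leukocyte cells contributed to the MHC class II levels was not tested. Igf1r-deleted replicate 1 was below both controls for 4 of 4 genes, against 34.8% of all genes tested. Igf1r-deleted replicate 2 was below both for 1 of 4, against 37.4%. The class median was -0.47, and it was -0.75 without Igf1r-deleted replicate 2 but -0.30 without Igf1r-deleted replicate 3.

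Cd74, the invariant chain, was at 55.7 and 75.6 CPM in the controls, against 43.6, 58.4 and 33.2 CPM in the deleted group, with a log2 fold change of -0.54 (SE 0.24, unadjusted p = 0.0536). H2-Aa, the alpha chain of I-A, was at 22.3 and 31.7 CPM against 17.3, 20.4 and 16.2 CPM, with a log2 fold change of -0.59 (SE 0.18, unadjusted p = 0.0117). H2-Aa was the only MHC class II gene without overlap. H2-Ab1, the beta chain of I-A, was at 25.7 and 26.8 CPM against 16.6, 28.1 and 15.1 CPM, at -0.39 (SE 0.25, unadjusted p = 0.165). H2-Eb1, the beta chain of I-E, was at 19.1 and 11.6 CPM against 7.48, 20.6 and 7.79 CPM. H2-Ab1 and H2-Eb1 were highest in Igf1r-deleted replicate 2. The ratio of H2-Eb1 to H2-Aa counts was 0.855 and 0.367 in the controls and 0.433, 1.01 and 0.481 in the Igf1r-deleted libraries, whereas that of Cd74 to H2-Aa stayed between 2.05 and 2.86.

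The 2 neutrophil genes differed widely between the controls, at 158% and 42.0% of the control mean for their summed level. S100a8 and S100a9, neighbors at chr3:90668978-90670035 and chr3:90692632-90695721, encode the subunits of calprotectin, an abundant cytosolic protein of neutrophils and monocytes. S100a8 was at 62.9 and 18.1 CPM in the controls, against 34.6, 7.75 and 5.51 CPM in the deleted group, with a log2 fold change of -1.35 (SE 0.79, unadjusted p = 0.132). S100a9 was at 103 and 25.9 CPM against 56.9, 13 and 13.2 CPM, at -1.21 (SE 0.75, unadjusted p = 0.150). Igf1r-deleted replicate 1 was above control replicate 2 for both, while Igf1r-deleted replicates 2 and 3 were below both controls. Leaving out control replicate 1 gave a median of -0.05 for this pair, and leaving out Igf1r-deleted replicate 1 gave -2.46.

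All 4 lymphocyte genes were lower by their fitted fold change. Their summed level was 19.5 and 29.5 CPM in the controls, against 15.2, 4.43 and 6.60 CPM in the deleted group, or 61.9%, 18.1% and 26.9% of the control mean. Here control replicate 2 was the higher control, which is the reverse of the neutrophil and macrophage classes. Cd79a (chr7:24897381-24902197), the Ig-alpha chain of the B cell receptor, was at 10.2 and 11.2 CPM in the controls, against 5.81, 1.86 and 2.53 CPM in the deleted group, with a log2 fold change of -1.66 (SE 0.43, unadjusted p = 0.00611), and 12.2% of its 31-base words also occurred in Gm32220. Ms4a1, which encodes CD20, was at 6.22 and 14.2 CPM against 5.64, 1.23 and 3.12 CPM, at -1.62 (SE 0.58, unadjusted p = 0.0257). Both B cell genes were without overlap. Their adjusted p in edgeR's quasi-likelihood F test after Benjamini-Hochberg adjustment was 0.354 and 0.364.

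Cd3e, the epsilon chain of the T cell receptor complex, was at 1.84 and 2.73 CPM in the controls, against 2.13, 1.18 and 0.946 CPM in the deleted group, and had the lowest level per kilobase of the 38 genes in the controls (0.560 CPM per kb). Nkg7, a granule membrane protein of NK and cytotoxic T cells, had 45 and 47 counts in the controls and 56, 6 and 0 counts in the Igf1r-deleted libraries. The exact 95% Poisson interval was 2.20 to 13.1 for the 6 counts and reached 3.69 for the 0 counts. Both upper limits lie below the counts of the other 3 libraries, and they cover counting error only. With 1 library at 0, the fitted fold change of Nkg7 depends on the prior count, so its size is not given or plotted.

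**Figure D3:**
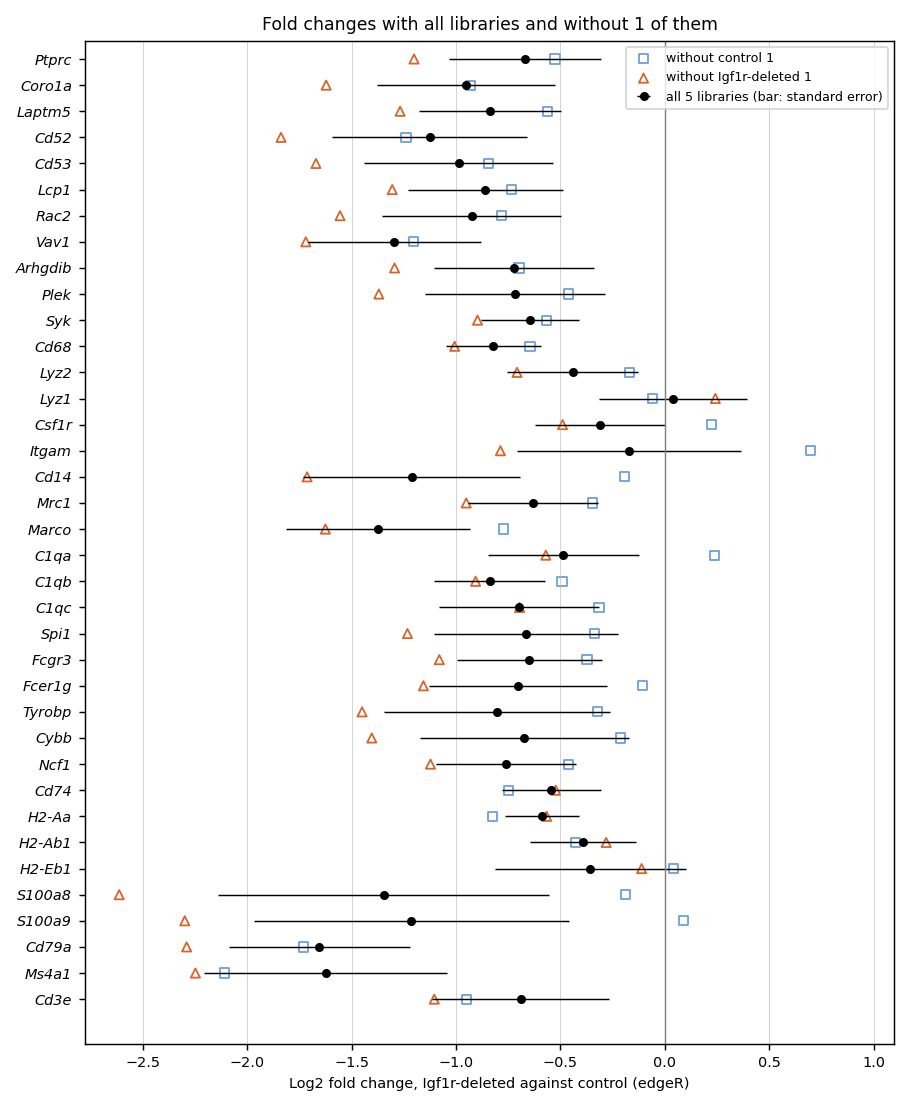
Log2 fold change of each gene except Nkg7, Igf1r-deleted against control, with all 5 libraries (black, with the standard error), without control replicate 1 (squares) and without Igf1r-deleted replicate 1 (triangles). Without Igf1r-deleted replicate 1 most pan-leukocyte genes move further below 0, and without control replicate 1 Itgam, Csf1r, C1qa, S100a9 and H2-Eb1 pass to the right of 0.

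Counts were also compared with those of Ptprc in the same library, a ratio in which the library total cancels. The ratio of Cd79a to Ptprc was 0.327 and 0.440 in the controls and 0.202, 0.149 and 0.207 in the Igf1r-deleted libraries, without overlap. The ratio of S100a8 to Ptprc was 2.03 and 0.709 against 1.20, 0.621 and 0.451, with Igf1r-deleted replicate 1 between the controls. The ratio of C1qa to Ptprc was 0.568 and 0.299 against 0.347, 0.847 and 0.531, and that of H2-Aa to Ptprc was 0.718 and 1.24 against 0.602, 1.64 and 1.33. Cd79a was thus lower relative to Ptprc in all 3 Igf1r-deleted libraries, whereas C1qa and H2-Aa were highest relative to Ptprc in Igf1r-deleted replicate 2. This did not hold for the other B cell gene, Ms4a1. Ms4a1 had 216 counts beside 1079 of Ptprc in control replicate 1, but 112 beside 439 in Igf1r-deleted replicate 3. Relative to Ptprc, Ms4a1 was thus higher in Igf1r-deleted replicate 3 than in control replicate 1. These ratios are descriptions of 5 libraries, and an exact permutation test of 2 against 3 libraries cannot give a p below 0.1.

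**Figure D4:**
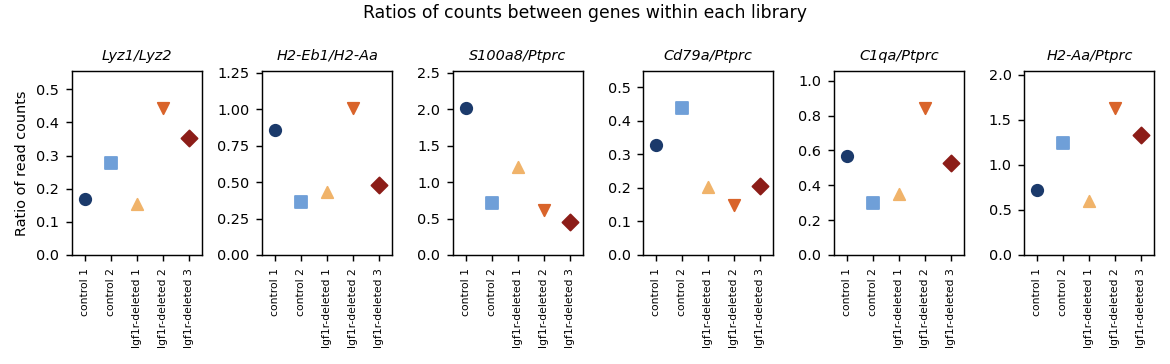
Ratios of read counts between pairs of genes in each of the 5 libraries, with each axis starting at 0. The ratio of Cd79a to Ptprc is below both controls in all 3 Igf1r-deleted libraries, and the ratios of Lyz1 to Lyz2, H2-Eb1 to H2-Aa, C1qa to Ptprc and H2-Aa to Ptprc are highest in Igf1r-deleted replicate 2.

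Other genes of the same cell classes and of signals to them were read from lists of genes outside the 38. Of 117 such genes tested, 0 reached an adjusted p of 0.05 in edgeR's quasi-likelihood F test. At an unadjusted p under 0.05 in that test, 17 were lower, against 6.75% of all genes, and 1 was higher. DESeq2 called 2 (Mertk and C3) at an adjusted p under 0.05, against 1.31% of all genes in either direction. The share of 6.75% also applies to the counts of lower genes at an unadjusted p in each list below. Of 7 B cell genes tested, 7 were lower, 5 of them at an unadjusted p under 0.05 and 5 without overlap, against 14.9% of all genes lower without overlap. Their median log2 fold change was -1.27, and it was -1.98 without Igf1r-deleted replicate 1. Pax5, the B lineage transcription factor, was at 1.09 and 1.15 CPM in the controls, against 0.482, 0.277 and 0.223 CPM in the deleted group. Cd79b, the Ig-beta partner of Cd79a, was at 6.28 and 11.4 CPM against 6.35, 2.72 and 2.39 CPM. Both were lowest in Igf1r-deleted replicates 2 and 3, as Cd79a and Ms4a1 were.

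Of 12 T and NK cell genes tested, 12 were lower, 2 (Cd4 and Cd8a) at an unadjusted p under 0.05, with a median of -0.91 that was -1.79 without Igf1r-deleted replicate 1. Of 11 granulocyte genes tested, 11 were lower, 1 (Mpo, the azurophil peroxidase) at an unadjusted p under 0.05, with a median of -0.87 that ran from -0.06 without control replicate 1 to -1.86 with Igf1r-deleted replicate 1 left out, and was -1.41 with control replicate 2 and -0.52 with Igf1r-deleted replicate 3 left out. Ngp, a neutrophil granule protein, was at 48.1 and 17.3 CPM in the controls, against 45.3, 9.58 and 5.65 CPM in the deleted group. Ngp thus ordered the 5 libraries as S100a8 did.

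Of 10 alveolar macrophage genes, 10 were lower, 2 (Plet1 and Fabp4) at an unadjusted p under 0.05, with a median of -0.85 that was -1.40 without Igf1r-deleted replicate 1 and -0.46 without Igf1r-deleted replicate 3. Chil3, a secreted chitinase-like protein of alveolar macrophages and neutrophils, was at 46.1 and 10.6 CPM in the controls, against 21.7, 3.82 and 2.81 CPM in the deleted group. Of 17 interstitial macrophage and monocyte genes, 15 were lower, 2 (Mertk and Ctss) at an unadjusted p under 0.05, with a median of -0.37 that was -0.15 when control replicate 1, -0.81 when Igf1r-deleted replicate 1 and -0.23 when Igf1r-deleted replicate 3 was left out. Of 11 dendritic cell and antigen presentation genes, 8 were lower and 3 higher. At an unadjusted p under 0.05, 2 (Ccr7 and Siglech) were lower, and 6 of the 11 were lower without overlap, against 14.9% of all genes. The median was -0.40, or -0.61 without Igf1r-deleted replicate 2 and -0.20 without Igf1r-deleted replicate 3. Ciita, the master activator of MHC class II genes, was at 1.84 and 1.91 CPM in the controls, against 1.36, 2.29 and 2.004 CPM in the deleted group, named here after its values were seen. Like H2-Ab1 and H2-Eb1, Ciita was highest in Igf1r-deleted replicate 2. In Igf1r-deleted replicate 3 they parted. Ciita was above both controls there, whereas H2-Ab1 and H2-Eb1 were at 57.6% and 50.7% of their control means. Of 21 leukocyte integrin and signaling genes, 17 were lower, 2 (Inpp5d and Wdfy4) at an unadjusted p under 0.05, 1 (Runx1) was higher at that threshold, and the median was -0.54, or -0.30 with control replicate 1 and -0.91 with Igf1r-deleted replicate 1 left out.

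**Figure D5:**
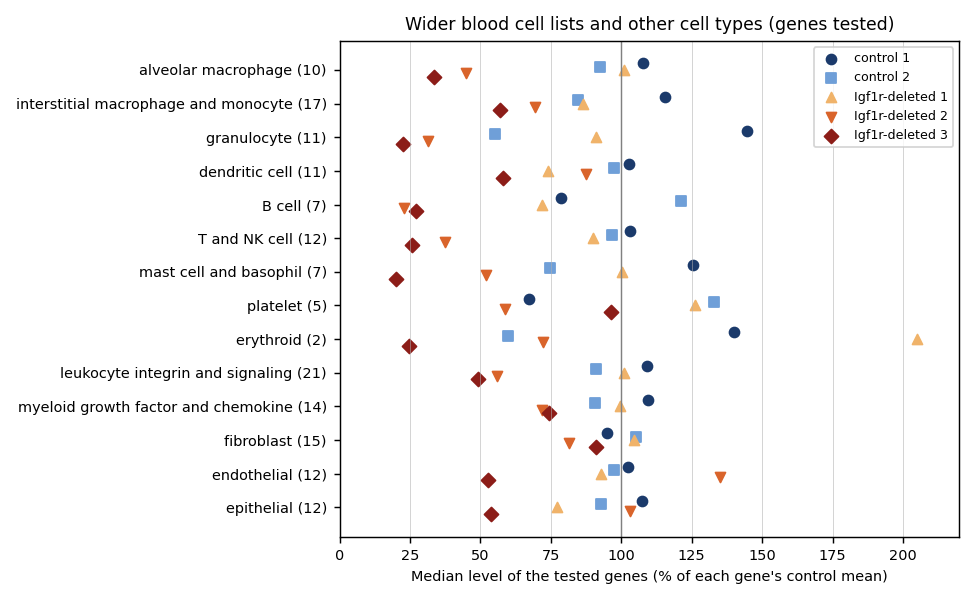
Median level of the tested genes of each list in each library, as a percentage of each gene's control mean (grey line at 100%), with the number of genes tested in parentheses. B cell, T and NK cell and granulocyte medians of Igf1r-deleted replicates 2 and 3 lie between 22.7% and 37.3%, the fibroblast medians lie between 81.5% and 105%, and the endothelial median is 135% in Igf1r-deleted replicate 2 and 52.6% in Igf1r-deleted replicate 3.

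Markers of the other lung cell types placed the leukocyte signal in scale. The median level per kilobase in the controls was 7.22 CPM per kb over the 38 genes, 186 over 15 fibroblast genes, 9.08 over 12 endothelial genes and 18.1 over 12 epithelial genes. The defining fibroblast genes were thus present at high levels, and leukocyte, endothelial and epithelial genes were minor signals. The summed endothelial level was 666 and 645 CPM in the controls, against 607, 901 and 312 CPM in the deleted group, and the summed epithelial level was 1111 and 1034 CPM against 748, 1115 and 504 CPM. Both lists were lowest in Igf1r-deleted replicate 3, for 12 of 12 endothelial and 9 of 12 epithelial genes, the library in which 30 of the 38 leukocyte genes were also lowest. In Igf1r-deleted replicate 2 they parted, since 10 of 12 endothelial genes were at their highest while 30 of the 38 leukocyte genes were below both controls. Of all 15298 genes tested, 3054 were highest in Igf1r-deleted replicate 2 and 3118 were lowest in Igf1r-deleted replicate 3. The summed fibroblast level was 61585 and 55372 CPM in the controls, against 55817, 40870 and 46019 CPM in the deleted group. How far the share of non-fibroblast cells in each sort contributed to the leukocyte levels was not tested.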

How the data were processed

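The authors sorted GFP+ lung cells, prepared libraries with a NEBNext Ultra kit and generated 150-base paired-end reads. After trimming in Trim Galore and alignment to mm10 in Bowtie2, reads per gene were counted with GenomicAlignments. They deposited raw counts, 1 column per library. Which gene models were used, and whether counting used strand, is not given in the sources used here, so overlapping and near-identical genes may share reads. Library totals were 35116766 to 37597857 counts, and the spread between libraries, not counting error, sets the precision.

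Groups and replicate numbers came from the sample labels. Nothing in the labels says that the libraries of a group came from separate litters, so p-values measure the spread between these libraries. The 15298 genes that filterByExpr kept were fitted by genotype alone, with TMM factors, in R 4.3.3 with edgeR 4.0.16 and limma 3.58.1. The quasi-likelihood F test was two-sided and p-values were adjusted over all genes tested by the Benjamini-Hochberg method. CPM values are TMM-scaled, and levels per kilobase use union exon lengths of GENCODE M21. The procedure was first tested on simulated data. Alternatives were DESeq2 1.42.0, 3 other scalings, 2 other count filters, robust empirical Bayes, a replicate block and leaving out each library.

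The 38 genes and all lists were chosen with earlier results of these data known, so no test over a list was run. By rule, every one of the 38 genes is named with its levels, fold changes are given for those at an unadjusted p under 0.05 and for the 2 most abundant of each class, and in other lists the 2 most abundant genes and those at an unadjusted p under 0.05 may be named. Promoters came from RefSeq (GRCm38.p6), and none was read for H2-Ab1, Tyrobp, Spi1, Cd14, C1qa, Rac2, Csf1r, Ms4a1, Cd52 and Cd74. Protein sequences were not used here.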

Additional observations from a re-analysis of the deposited data

How the results depend on the processing

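The direction of the median held under every alternative, from -1.22 without Igf1r-deleted replicate 1 to -0.48 without control replicate 1, and it was -0.72 with all libraries. The number of genes with an adjusted p under 0.05 was 0 in edgeR's quasi-likelihood test, 1 in DESeq2 (Cd79a), 2 with the replicate block (S100a8 and S100a9, with 0.889% of all genes called) and 0 to 1 when each library was left out in turn. The number lower at an unadjusted p under 0.05 was 10 with all libraries, 17 when every gene with at least 1 count was tested (6.2% of all genes called there), 26 with the replicate block (7.34% of all genes), and 4 to 29 when a library was left out (1.61% to 11.6% of all genes), the fewest with control replicate 1 left out and the most with Igf1r-deleted replicate 1 left out. The number without overlap ran from 13 to 31 when a library was left out, with 19.6% to 31.3% of all genes. Replicate number 3 occurs only in the deleted group, so the replicate block fit drew its genotype effect from numbers 1 and 2 alone. Igf1r-deleted replicate 3, the lowest library for 30 of the 38 genes, did not enter that effect. The cause of the changes between settings was not tested. When each library was left out in turn, the fitted log2 fold change ran from -0.48 to 0.24 for Lyz1, -0.71 to 0.22 for Csf1r, -0.79 to 0.70 for Itgam, -0.98 to 0.24 for C1qa, -1.01 to 0.044 for H2-Eb1 and -2.30 to 0.089 for S100a9, so their directions were not stable. With the replicate block Itgam was at 0.13. The replicate numbers pair the libraries only by number, and with 2 shared numbers the correlation of deviations was 0.208 for number 1 and 0.121 for number 2. With 2 controls, their deviations from the control mean are exact opposites. Control replicate 2 and Igf1r-deleted replicate 3, which share no number, gave 0.119, so these values cannot show pairing by number. Scaling by library totals, upper quartiles or DESeq2 size factors and robust empirical Bayes turned no gene's direction. The filter at a mean of 50 counts left Nkg7 untested. Depth limits Nkg7, Marco, Cd3e, Vav1 and Ms4a1 most, with fewer than 50 counts in at least 1 library each.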

Other observations

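Signals that recruit or sustain myeloid cells, a list outside the leukocyte genes, were mixed. Of 14 such genes tested, 12 were lower and 2 higher by their fitted fold change. At an unadjusted p under 0.05, 1 of the 14, C3, was lower, against 6.75% of all genes tested. The median log2 fold change of the list was -0.32 with all libraries and 0.13 without control replicate 1, so its direction was not stable. C3, the central complement component that fibroblasts also make, was at 339 and 305 CPM in the controls, against 175, 149 and 173 CPM in the deleted group, with a log2 fold change of -0.96 (SE 0.11) and an adjusted p of 0.306 in edgeR's quasi-likelihood F test after Benjamini-Hochberg adjustment. All 3 Igf1r-deleted libraries, Igf1r-deleted replicate 1 included, were thus well below both controls for C3. Kitl, the ligand of KIT on mast cells and precursors, was at 300 and 319 CPM against 297, 255 and 269 CPM.

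Csf1 and Il34, the ligands of Csf1r, and Ccl2, the monocyte chemokine, were chosen after their values were seen. Csf1 was at 87.7 and 82.6 CPM in the controls, against 91.0, 65.7 and 72.6 CPM in the deleted group, and Il34 was at 3.37 and 5.13 CPM against 4.79, 8.37 and 6.99 CPM. Ccl2 was at 30.8 and 14.9 CPM against 36.9, 5.05 and 9.21 CPM, with Igf1r-deleted replicate 1 above both controls and Igf1r-deleted replicates 2 and 3 below them. Of 7 mast cell and basophil genes 6 were lower, and of 5 platelet genes 4 were higher, with none at an unadjusted p under 0.05 in either list. The platelet median was 0.29 with all libraries, -0.13 when control replicate 1 and -0.14 when Igf1r-deleted replicate 1 was left out. Of 8 erythroid genes, 3, the hemoglobin genes Hba-a2, Hbb-bs and Hbb-bt, had 0 counts in every library, and 2 had enough counts to be tested. The summed level of the 8 was 2.88 and 1.39 CPM in the controls, against 4.36, 1.79 and 0.751 CPM in the deleted group. Whether the way reads were counted gave these 0 counts was not tested.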
